A study of Mus musculus with 20 samples.

Results

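The genes described here make and control the DNA replication machinery, 40 of the 34234 features of a bulk RNA-seq table from mouse kidney tumours. They were chosen by name for their textbook role in replication, with earlier results of these data known. The list covers the MCM helicase, origin licensing, the polymerases, the sliding clamp, nucleotide supply and maintenance methylation. Total RNA of tumours grown from MSRT1, a cell line that the labels give as renal medullary carcinoma, was sequenced in 20 libraries, 5 in each of 4 groups. Mice received vehicle and IgG (Veh_IgG), GYY and IgG (GYY_IgG), vehicle and PD1 (Veh_PD1) or GYY and PD1 (GYY_PD1). GYY is GYY4137, a slow-releasing hydrogen sulfide donor, and PD1 is taken here as antibody against the checkpoint receptor PD1, with IgG as its control. All 4 groups carry tumours of the same line in the kidney. The labels used here give no genotype, strain, age, dose or time for the mice, and a single cell line limits what the groups can stand for.

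Replication starts when the origin recognition complex, Cdc6 and Cdt1 load the MCM2-7 helicase onto DNA in G1. Cdc45 and the GINS complex then turn the helicase on in S phase, polymerase alpha-primase lays down primers, and polymerases epsilon and delta extend them on the PCNA clamp, which replication factor C loads. Many of these genes are transcribed at the G1/S boundary under E2F factors, so in tumour tissue their RNA is widely used as a sign of the share of cycling cells.

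Values are TPM, which count transcripts per length and per library total, so levels can be compared between genes. In each library TPM were rescaled so that nuclear protein-coding genes sum to 1000000, because 13 gene models made of satellite-like repeats took between 1.63% and 83.4% of all TPM. The GYY_PD1 libraries of replicates 1 and 4 stand apart. In replicate 1, 53.6% of TPM was satellite-like and 5.26% was coding, and its median Spearman correlation with the other libraries was 0.587. In replicate 4 these values were 83.4%, 2.94% and 0.890, while the other 18 libraries had correlations of 0.930 to 0.962. Results are therefore given over all 20 libraries and over the 18 that remain without both. The labels call the libraries biological replicates, and the p-values measure the spread between these libraries only. In bulk RNA, fewer cycling cells and less RNA per cell cannot be told apart.

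The label of the tumours was compared with known features of renal medullary carcinoma, in which loss of the SWI/SNF chromatin remodeller subunit SMARCB1 is the usual finding. Smarcb1 was measured in every library, from 29.3 to 108 rescaled TPM, and in bulk libraries its RNA from tumour and from host cells cannot be told apart. The kidney lineage factor Pax8 ranged from 42.1 to 211, and the keratin Krt8 from 157 to 898. For other genes of the same list the 18-library medians were 2011 for Vim, 410 for the keratin Krt18 and 25.2 for Cdh1. They were lower for the epithelial adhesion gene Epcam (6.90), the keratin Krt19 (2.52) and the pluripotency factor Pou5f1 (0.25). Pou5f1 was at most 0.31 in Veh_IgG and reached 6.06 in GYY_IgG replicate 4 and 11.3 in GYY_PD1 replicate 4. Markers of host cells were also present. The summed macrophage markers had group medians from 1808 to 2160, and the summed T cell markers had a median of 8.50 in the Veh_IgG libraries, 11.3 in the Veh_PD1 libraries, 15.7 in the GYY_IgG libraries and 31.5 in the GYY_PD1 libraries.

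E2F factors bind promoters of replication genes, and E2F-like letters were searched here with the loose pattern TTTNNCGC. N is any base, so a match need not be a preferred E2F site. Windows around this motif are shown for 4 of the 9 members whose promoter holds it before the start site. They are examples from the helicase, primer synthesis and maintenance methylation. The others are Mcm7, Gins3, Orc1, Cdc6 and Rfc3, and Uhrf1 has a further promoter with the motif. RefSeq promoters of the build GRCm38.p6 (250 bases before to 50 after each start) were matched for 33 of the 40 genes. The motif, searched on both strands, was in 16 of these 33, which is 48.5%, against 5.93% of 27025 genes and 5.17% of 32851 promoters of the same length. CCAAT, the box bound by NF-Y, was in 21 of the 33, or 63.6%, against 41.1% of genes. The shares of genes and promoters cover all those listed, expressed or not, and were not matched for base composition. A match is a description of letters, not a measured site. In the lines below, capitals mark the motif or its reverse complement, and overlapping copies are joined.
Mcm5, chr8:75109326-75109397, plus strand: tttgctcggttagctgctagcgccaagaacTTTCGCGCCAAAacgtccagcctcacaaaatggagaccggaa
Mcm6, chr1:128359715-128359845, minus strand: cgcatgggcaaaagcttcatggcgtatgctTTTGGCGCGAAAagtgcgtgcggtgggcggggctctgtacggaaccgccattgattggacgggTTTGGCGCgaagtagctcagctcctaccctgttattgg
Pola1, chrX:93632256-93632323, minus strand: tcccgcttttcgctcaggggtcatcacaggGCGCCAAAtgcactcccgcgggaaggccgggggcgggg
Uhrf1, chr17:56303251-56303318, plus strand: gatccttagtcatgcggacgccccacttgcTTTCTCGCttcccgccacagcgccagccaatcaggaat
In Mcm5 a copy on each strand overlaps within 12 bases, and in Mcm6 such a pair stands beside a further copy nearer the start. These 2 helicase genes and Pola1, the catalytic subunit of polymerase alpha, lie on chromosomes 8, 1 and X, so they are not neighbours.

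All 40 genes were expressed. The highest was Pcna, the sliding clamp, with a median of 524 rescaled TPM over the 18 libraries, followed by the helicase subunits Mcm4 at 274 and Mcm6 at 192, and by Rrm2, the small subunit of ribonucleotide reductase, at 191. Mcm6 and Rrm2 did not differ beyond their spread. The lowest were the GINS subunit Gins3, at 12.9, and Orc1, the largest origin recognition subunit, at 8.84. Of the 40, 9 had a median of 100 or more and 2 were under 20. Over the 18 libraries the highest value of a gene was 1.55 times its lowest for Gins4 and 2.99 times for Rrm1, with a median of 2.00 over the 40 genes. The SD of log2 values had a median of 0.28, close to the 0.26 of all tested genes.

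The levels of partners in one complex were unequal. Among the 6 helicase subunits the medians were 274 for Mcm4, 192 for Mcm6, 163 for Mcm3, 157 for Mcm7, 85.5 for Mcm5 and 85.2 for Mcm2. Mcm2 and Mcm5 were neighbours whose ranges, 56.6 to 122 and 58.7 to 116, nearly coincided. Of the helicase activators, Gins4 stood highest at 94.1 (74.3 to 115), ahead of Cdc45 at 53.6 (31.1 to 71.3), Gins1 at 37.3, Gins2 at 27.7, Mcm10 at 21.5 and Gins3 at 12.9. The 4 GINS subunits form one complex, and Gins4 was above Gins3 in each of the 18 libraries, by 4.81 to 9.53 times.

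Of the licensing genes, Orc6, the smallest origin recognition subunit, had a median of 117 (82.7 to 180), Cdt1 52.9, Cdc6 22.1 and Orc1 8.84. Orc1 and Orc6 did not overlap in these 18 libraries. The primase subunits Prim1 (85.2) and Prim2 (70.1) were above the polymerase alpha subunits Pola2 (39.8) and Pola1 (32.3). Of the other polymerase genes, Pold2 had a median of 56.1, Pole2 51.6, Pold3 45.1, Pold1 39.1 and Pole, the catalytic subunit of polymerase epsilon, 23.5.

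The clamp Pcna ranged from 353 to 667, above every other member in each of the 18 libraries. Its loader subunits were lower and closer together, with medians of 72.0 for Rfc4, 55.2 for Rfc3, 50.2 for Rfc1, 33.7 for Rfc2 and 32.4 for Rfc5. Rpa1, which coats single-stranded DNA, had a median of 152 and its partner Rpa2 33.2. Of the genes that join Okazaki fragments, Lig1 had a median of 66.0 (46.5 to 92.1) and Fen1 51.8. For nucleotide supply, Rrm2 had 191 (129 to 302), Rrm1 89.2 (44.0 to 132), Tk1 76.0 (49.1 to 126) and Tyms 43.9 (24.5 to 59.1), and Uhrf1 had 125 (79.9 to 171).

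**Figure D1:**
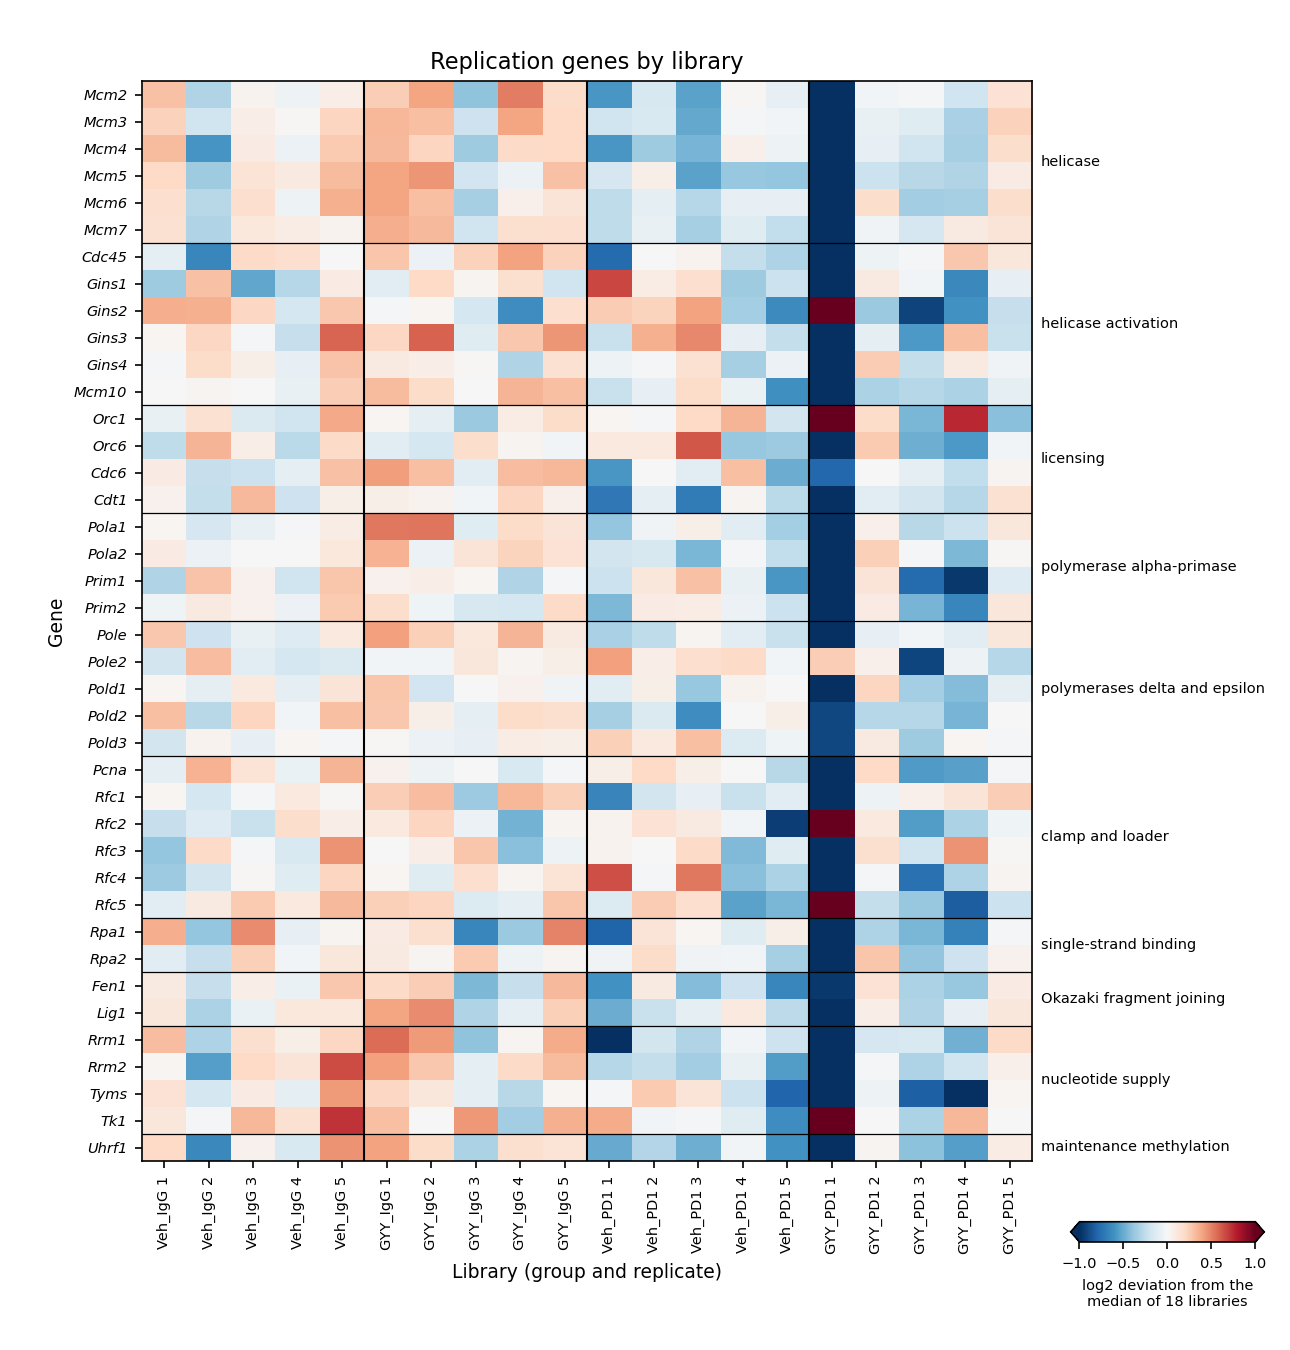
Each cell is the log2 deviation of a replication gene (rows, ordered by role) from its median over 18 libraries, for 20 libraries (columns, 5 per group); the colour scale ends at -1 and 1. The GYY_PD1 replicate 1 column is dark in nearly every row and red in Gins2, Orc1, Rfc2, Rfc5 and Tk1. Veh_PD1 replicate 5 and GYY_PD1 replicate 3 are mostly blue. Veh_IgG replicate 5 and GYY_IgG replicate 1 are mostly red, with 38 and 36 genes above their median.

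GYY_PD1 replicate 1 departed from the other libraries in both directions. It was the lowest of the 20 for 34 of the 40 genes and above the 18-library median for 6. Gins2, a GINS subunit, stood at 782 rescaled TPM there, 28.3 times its 18-library median of 27.7. The clamp loader subunits Rfc5 (514, 15.9 times) and Rfc2 (197, 5.84 times) were also far above, and Tk1, thymidine kinase, was 3.07 times its median. In that library 35 of 40 members were more than 2-fold from their median, against 76.8% of all tested genes. Subunit ratios, which do not depend on the scale, departed too: Orc6 over Orc1 was 0.215 there and 13.1 at the median, and Pole2 over Pole was 23.7 against 2.15.

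Outside that library the ratios varied less for some partners than for others. The ratio of Mcm4 to Mcm5, helicase subunits needed in equal number, was 3.05 ± 0.276 (SD, n = 5) in Veh_IgG, 3.32 ± 0.900 in Veh_PD1, 3.09 ± 0.417 in GYY_IgG and 3.44 ± 0.0762 in the 3 GYY_PD1 libraries left. The group means differed by less than the SD of Veh_PD1. Rrm2 over Rrm1 had group means from 2.08 to 2.29 in the same way. Gins4 over Gins3 was 9.08 ± 0.603 in the 3 GYY_PD1 libraries and 6.05 ± 1.33 in GYY_IgG. Pole2 over Pole was 2.84 ± 0.512 in Veh_PD1, with means of 1.75 to 2.18 in the other groups. These differences were not tested. Orc6 over Orc1 was 4.98 in GYY_PD1 replicate 4, outside the 7.79 to 19.9 of the 18 libraries.

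For the effect of PD1, most replication genes had a somewhat lower mean with PD1 than with IgG in the vehicle and the GYY arm. No gene passed the test, and the library medians over the 40 genes overlapped in each arm. The library medians of the log2 deviation ran from -0.17 to 0.23 in Veh_IgG and from -0.26 to 0.03 in Veh_PD1. In GYY_IgG they ran from -0.09 to 0.24, and in the 3 GYY_PD1 libraries left from -0.31 to 0.02. The genes share the same libraries, so counts of genes are descriptions. Averaged over vehicle and GYY, the median log2 difference of the 40 genes was -0.36 over 20 libraries and -0.20 over 18, a fold of 0.869, against -0.20 and -0.04 for all tested genes. Over 20 libraries 35 of 40 genes had a lower mean with PD1, against 75.7% of all tested genes. Over 18 libraries there were 38 of 40, against 61.2%, and Gins1 and Pold3 were the exceptions. With limma, 0 of 40 genes (and 0% of 11706 tested genes) had an adjusted p under 0.05 in either fit. An unadjusted p under 0.05 was reached, on the lower side, by 11 members over 20 libraries, against 3.11% of all tested genes, and by 12 over 18, against 3.81%.

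Mcm10, which helps the helicase start and recruits polymerase alpha, had the smallest p of the members. Its rescaled TPM were 21.4, 22.0, 21.6, 20.4 and 25.7 in Veh_IgG, and 27.0, 24.5, 21.6, 27.5 and 26.7 in GYY_IgG. In Veh_PD1 they were 18.3, 20.2, 24.6, 20.5 and 13.7, and in GYY_PD1 7.17, 17.05, 17.4, 17.01 and 20.04. The Veh_PD1 values overlapped those of Veh_IgG, while every GYY_PD1 library was below every Veh_IgG and every GYY_IgG library. The average PD1 difference was -0.46 log2 (SE 0.16, limma adjusted p = 0.574) over 20 libraries and -0.33 (95% interval -0.54 to -0.13, limma adjusted p = 0.821) over 18.

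Mcm5, a helicase subunit, was 98.4, 66.6, 93.7, 91.0 and 107 in Veh_IgG and 113, 116, 74.6, 82.2 and 105 in GYY_IgG. It was 75.7, 88.7, 58.7, 65.5 and 65.03 in Veh_PD1, and 14.99, 73.4, 70.4, 69.2 and 90.6 in GYY_PD1. The ranges overlapped in each arm, and the 18-library difference was -0.34 (95% interval -0.58 to -0.09, limma adjusted p = 0.821). Pold2, the accessory subunit of polymerase delta, had means of 61.0 ± 10.2 in Veh_IgG, 61.1 ± 5.72 in GYY_IgG and 49.2 ± 9.04 in Veh_PD1 (SD, n = 5 each), and 49.2 ± 5.82 in 3 GYY_PD1 libraries. Rrm2 had means of 211 ± 61.5, 224 ± 28.1, 156 ± 19.03 and 180 ± 22.8 in the same order. Its partner Rrm1 differed by -0.33 over 18 libraries (95% interval -0.64 to -0.03, limma adjusted p = 0.821), and the clamp loader subunit Rfc5, which turned to 0.04 over 20 libraries through its value of 514 in replicate 1, also by -0.33.

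**Figure D2:**
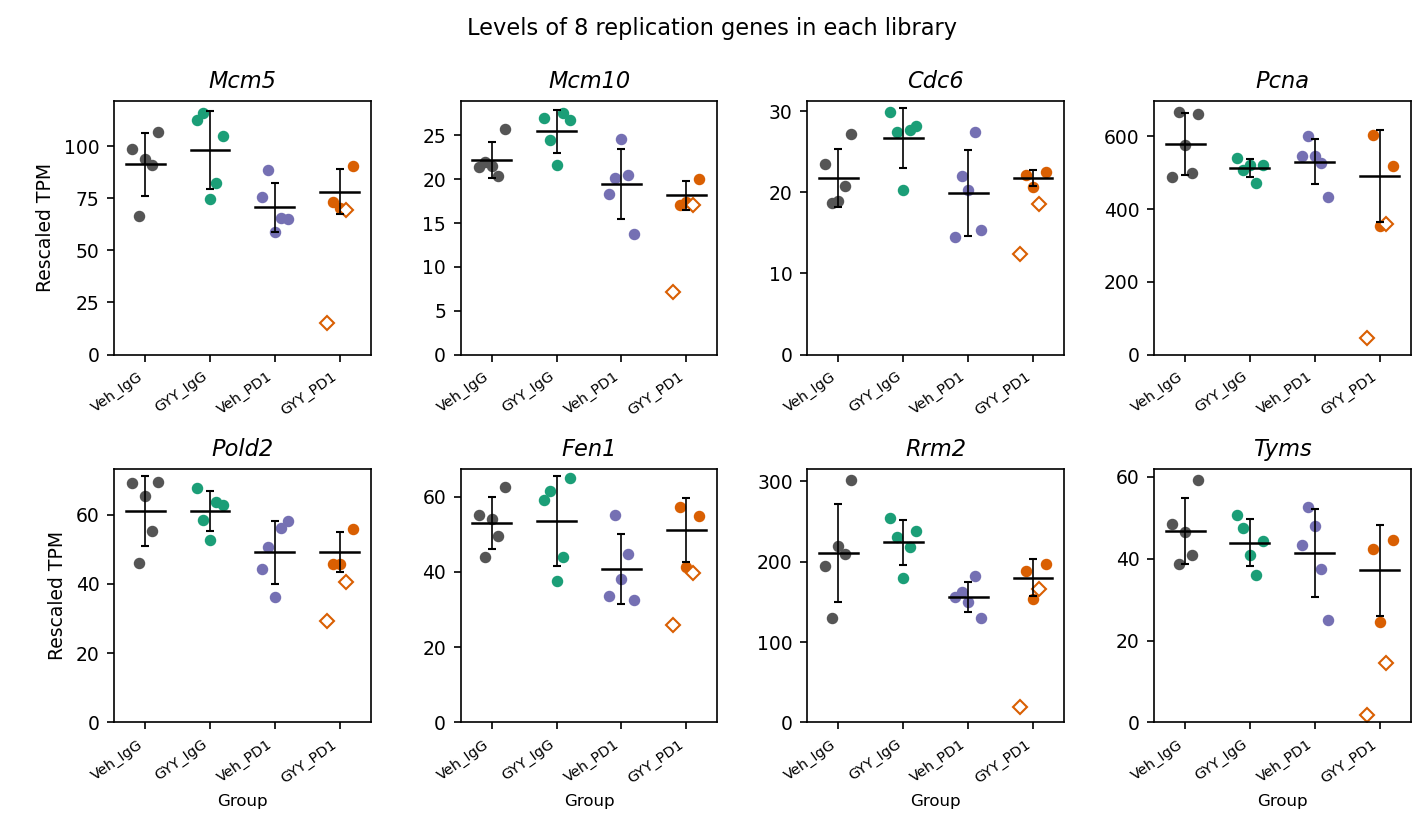
Rescaled TPM of 8 replication genes in each library by group; horizontal bars and error bars are the mean ± SD, and open diamonds are the GYY_PD1 libraries of replicates 1 and 4, left out of the mean. Mcm10 is at most 20.04 in the GYY_PD1 libraries, while the Rrm2 and Fen1 values of Veh_PD1 lie low within overlapping ranges.

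By role, the 18-library PD1 differences had medians of -0.32 for nucleotide supply (4 of 4 genes lower, 3 with unadjusted p under 0.05), -0.25 for helicase activation (5 of 6 lower), -0.22 for the helicase (6 of 6) and -0.20 for Okazaki fragment joining (2 of 2). They were smaller for the clamp and loader, at -0.10 (6 of 6), and for polymerases delta and epsilon, at -0.10 (4 of 5). Licensing, polymerase alpha-primase and single-strand binding are not listed here. Of all tested genes 61.2% were lower and 3.81% were lower at that threshold, and with 2 to 6 genes in a group these counts are descriptions only. Uhrf1, which recruits the maintenance methyltransferase to newly made DNA, differed by -0.29 (95% interval -0.58 to -0.0020, limma adjusted p = 0.821).

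The PD1 difference in the vehicle arm was smaller where satellite-like shares were matched. Over all Veh_PD1 and Veh_IgG libraries the median of the 40 genes was -0.19, with 34 of 40 lower against 59.5% of all tested genes (60.5% over 18 libraries). Among libraries with under 20% satellite-like TPM it was -0.01, with 22 of 40 lower against 56.4%. Veh_PD1 is represented there by replicates 2 and 3 alone, so that median rests on few libraries. In the GYY arm, libraries over 20% without both that stand apart gave a median of -0.09 with 29 of 40 lower, against 47.0% of all tested genes. These were only replicates 3 and 4 of GYY_IgG and replicates 2, 3 and 5 of GYY_PD1. The satellite-like share was also entered as a covariate, as log2 of its percent here and below. With it, over all 20 libraries, the average PD1 median was -0.24, beside -0.36 without the covariate. There 36 of 40 genes were lower, beside a median of -0.17 and 77.2% for all tested genes. At an unadjusted p under 0.05, 1 member was lower, against 0.162%. Of the 5 Veh_IgG libraries none exceeded 20%, against 3 of 5 Veh_PD1 and all 5 GYY_PD1 libraries. GYY_PD1 and Veh_IgG therefore share no range of satellite-like TPM, and there the share and the group cannot be told apart. With the share as a covariate over the same 20 libraries, that comparison had a median of -0.33, with 32 of 40 lower. All tested genes were near, at -0.27 and 74.0%.

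In Veh_PD1 against Veh_IgG, 0 of 40 members passed the limma test (0% of all tested genes), and at an unadjusted p under 0.05 there were 0 members over 20 libraries, against 0.769% of tested genes. Over 18 libraries 7 were lower at that threshold, against 3.45%. Fen1, the flap endonuclease that trims Okazaki fragments, was 55.1, 43.9, 54.1, 49.4 and 62.7 in Veh_IgG and 33.7, 55.0, 38.0, 44.8 and 32.5 in Veh_PD1. The groups overlapped through 2 Veh_PD1 libraries, and the difference was -0.39 (SE 0.17 over 18 libraries, limma adjusted p = 0.802). Cdt1, the licensing factor, differed by -0.34 (limma adjusted p = 0.802) and Tk1 by -0.34. In Veh_PD1 replicate 3 the helicase genes had a median deviation of -0.49, while Orc6 stood at 180, its highest value in the 20 libraries. In that library the deviation of the 40 genes had r = -0.479 with transcript GC percent, as did 11696 tested genes with r = -0.443, as a description over genes of a single library.

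For GYY alone, no replication gene passed the test. In GYY_IgG against Veh_IgG the median log2 difference was 0.08 against 0.04 for all tested genes, with 13 of 40 lower against 41.1% (41.6% over 18 libraries), and 0 of 40 members and 0% of tested genes passed the limma test. At an unadjusted p under 0.05 there were 0 members over 20 libraries, against 0.521% of tested genes, and 2 over 18, Pola1 and Pole, both higher, against 2.63% of tested genes on that side. Where satellite-like shares were matched the median lay further above 0. Among libraries under 20% it was 0.14, with 5 of 40 lower against 35.7% of all tested genes, whose median was 0.06, and 6 members were higher at an unadjusted p under 0.05 against 6.34%. With the share as a covariate over 20 libraries it was 0.16, with 5 of 40 lower against 37.6%, and 0 members reached that threshold. Limma called 0 members in both. Cdc6, the licensing ATPase, had means of 21.8 ± 3.59 in Veh_IgG and 26.7 ± 3.70 in GYY_IgG (SD, n = 5 each), a difference of 0.28 (SE 0.16 over 18 libraries, limma adjusted p = 0.992). Pola1 had 31.6 ± 2.06 and 39.1 ± 7.68. Cdc45 had 51.8 ± 11.2 and 62.8 ± 7.15. The fitted folds of these 3 genes were 1.22 to 1.23, and the 95% interval of the median member reached 0.32 log2 to each side over 18 libraries.

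Averaged over both antibodies, the GYY difference had a median of -0.12 over 20 libraries and 0.05 over 18, with 28 and 15 of 40 lower, against 67.1% and 39.8%. All-gene medians were -0.11 and 0.04. Limma called 0 of 40 members and 0% of tested genes. At an unadjusted p under 0.05 there were 0 members over 20 libraries, against 5.47% of tested genes. Over 18 libraries 4 members had unadjusted p under 0.05 on the higher side (Cdc45, Pola2, Pole and Rfc1) and 1 on the lower side (Gins2), against 7.32% and 3.85% of all tested genes. Pola2, the second subunit of polymerase alpha, differed by 0.21 (95% interval 0.05 to 0.37, limma adjusted p = 0.359), and Gins2 by -0.41 (95% interval -0.73 to -0.09, limma adjusted p = 0.390). The smallest p over 20 libraries belonged to Tyms (-0.62), Prim1 (-0.33), Pcna (-0.53) and Rpa1 (-0.41), which were at -0.12, -0.11, -0.15 and -0.13 over 18. The helicase had 6 of 6 genes with a higher mean over 18 libraries, at a median of 0.17, none with an unadjusted p under 0.05.

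**Figure D3:**
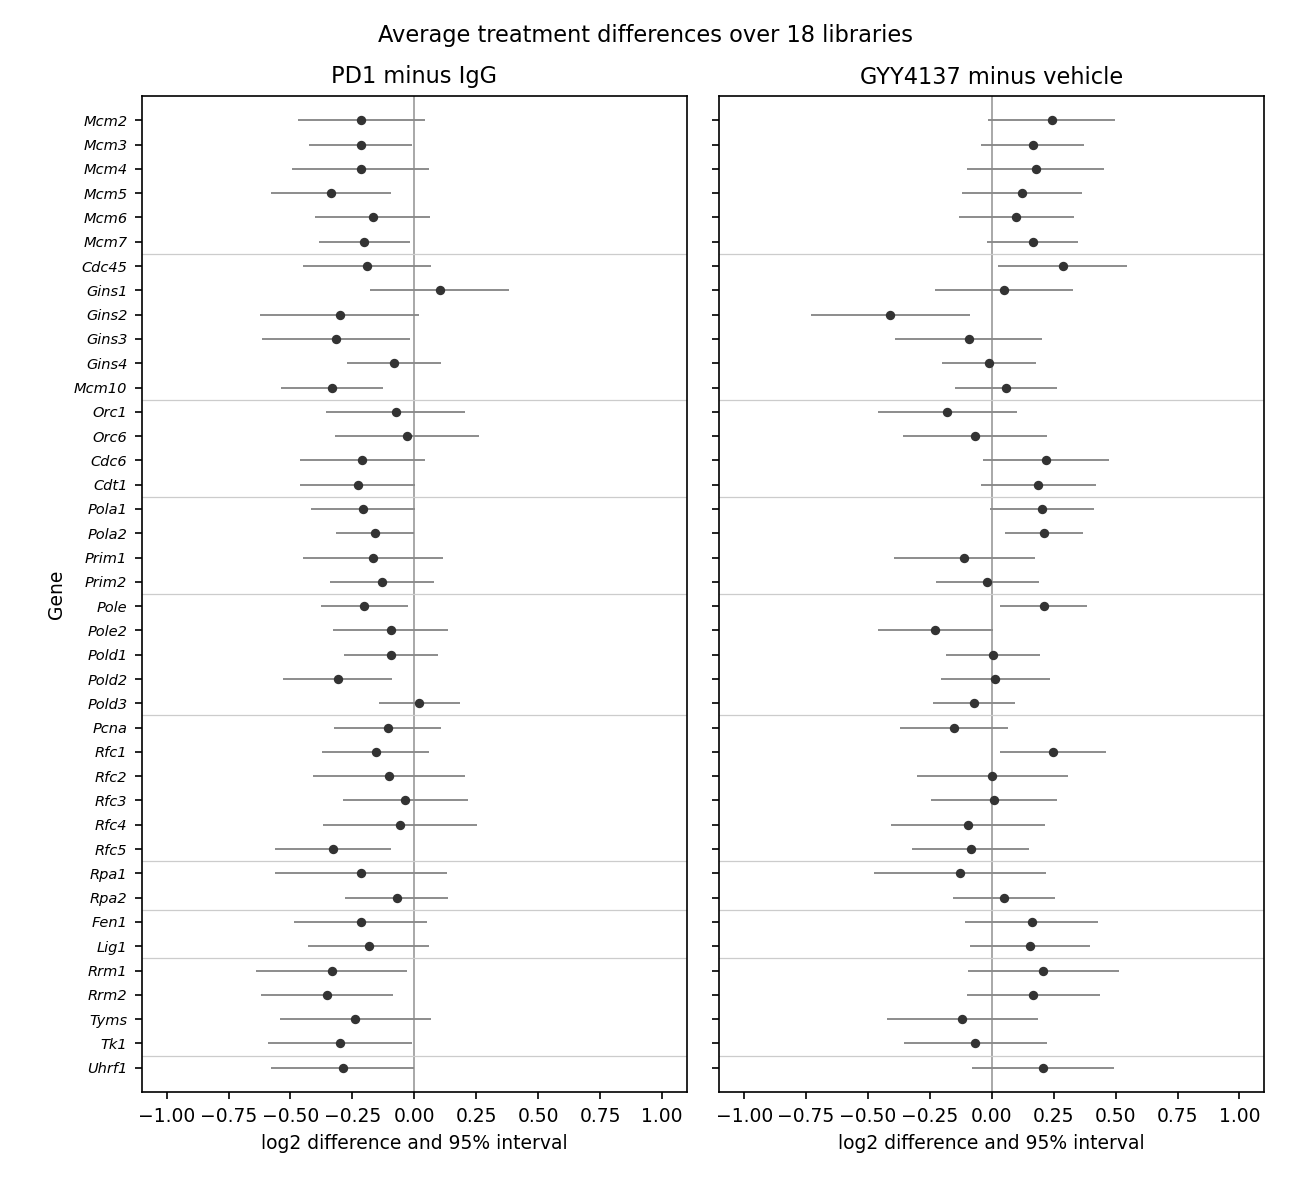
log2 difference and 95% interval of each replication gene over 18 libraries for PD1 minus IgG (left) and GYY4137 minus vehicle (right), each averaged over the other treatment. Most points of the left panel are below 0, at a median of -0.20, and those of the right panel lie on both sides of 0, at a median of 0.05.

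For the combination against Veh_IgG, the differences depended on the 2 libraries that stand apart. Over 20 libraries the median was -0.49, against -0.31 for all tested genes, with 35 of 40 lower against 73.7%. Limma called 0 of 40 members and 0% of tested genes, and 7 had an unadjusted p under 0.05 on the lower side, against 9.22%. Without both libraries the median was -0.09 with 33 of 40 lower against 49.6%, and 2 members were lower at that unadjusted threshold against 3.28%. The 5 members whose values were under the filter level of 5 rescaled TPM in 1 library (Gins3, Pole, Tyms, Rfc1 and Orc6) did so in GYY_PD1 replicate 1.

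On the deposited scale, before rescaling, 37 of 40 members passed the limma test on the lower side, against 69.9% of all tested genes, with Gins2, Rfc2 and Rfc5 as the 3 that did not. The member median was -2.24 there, beside -2.09 for all tested genes.

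Tyms, thymidylate synthase, had the smallest p. It was 48.5, 38.8, 46.6, 41.0 and 59.1 in Veh_IgG and 1.79, 42.4, 24.5, 14.54 and 44.6 in GYY_PD1. Replicates 1, 3 and 4 were low and the other 2 GYY_PD1 libraries lay within the Veh_IgG range. The difference was -1.35 (SE 0.50, limma adjusted p = 0.332) over 20 libraries and -0.36 (95% interval -0.82 to 0.10) over 18. Prim1, the catalytic primase subunit, was 69.0, 104, 87.5, 74.2 and 104 in Veh_IgG and 24.8, 93.4, 49.6, 43.2 and 77.9 in GYY_PD1. The same 3 replicates were low and the other pair within range. Its difference went from -0.72 (SE 0.28, limma adjusted p = 0.343) to -0.28 without both libraries.

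Mcm10 was the sole member whose groups did not overlap, being lower in GYY_PD1 than in Veh_IgG (1.83% of all tested genes had this pattern) and than in GYY_IgG (1.03%). The differences were -0.54 (SE 0.22, limma adjusted p = 0.348) and -0.73 (SE 0.22, limma adjusted p = 0.372), and -0.28 and -0.46 without both libraries. The most abundant gene of each role group differed from Veh_IgG as follows. Pcna differed by -1.02 (SE 0.46), Orc6 by -1.04 (SE 0.56), Rpa1, the large single-strand binding subunit, by -0.90 (SE 0.38), Rrm2 by -0.84 (SE 0.45) and Mcm4 by -0.62 (SE 0.39), each with a limma adjusted p of 0.348 to 0.359. Without both libraries these were -0.26, -0.10, -0.34, -0.18 and -0.04. Gins4 (-0.61), Uhrf1 (-0.58), Pold2 (-0.49) and the ligase Lig1 (-0.27) were at -0.09, -0.08, -0.30 and -0.03 without them.

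GYY_PD1 replicate 3 was not left out, and 39 of its 40 members were below their median, by a median of -0.31. Its adipocyte markers summed to 2907 rescaled TPM, against 20.6 to 213 in the other libraries, and its fibroblast markers to 2912, against 11.4 to 1330; their part in the result was not tested. Leaving it out as well gave a median of 0.04 for the combination against Veh_IgG, with 15 of 40 lower against 51.2% of all tested genes. The PD1 average was then -0.15, with 32 of 40 lower against 61.8%, and 5 were lower at an unadjusted p under 0.05 against 2.93%. The low replication genes of GYY_PD1 thus rest on replicates 1, 3 and 4, and replicates 2 and 5 had medians of 0.00 and 0.02. In Veh_PD1, replicates 1 to 5 had 29, 23, 19, 30 and 37 of 40 members below their median. Their satellite-like shares were 59.6%, 1.63%, 12.55%, 40.7% and 47.7%. In other groups, GYY_PD1 replicate 5 had 17 below at a share of 54.8%, and Veh_IgG replicate 2 had 26 below at 9.48%. A link of these counts with the share was not tested.

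**Figure D4:**
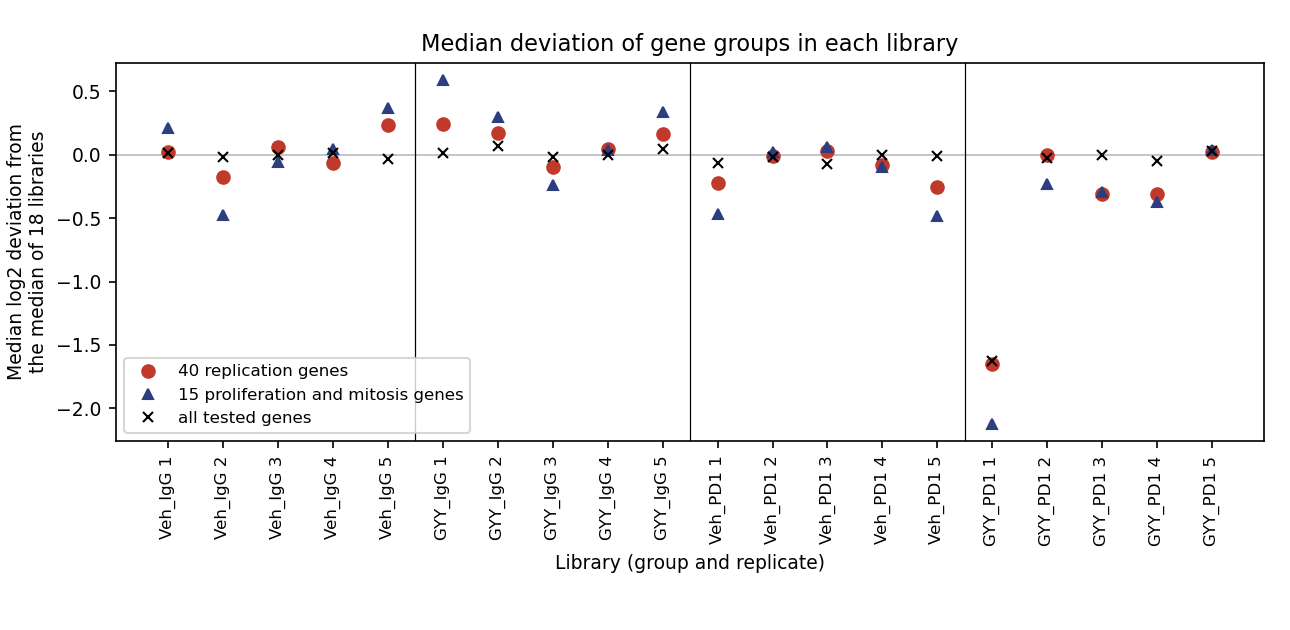
Median log2 deviation from the 18-library median in each library for the 40 replication genes (circles), 15 proliferation and mitosis genes (triangles) and all tested genes (crosses). The circles of GYY_PD1 replicates 3 and 4 are at -0.31 while the crosses are near 0; replicate 1 is at -1.65, close to all genes.

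Against GYY_IgG, the combination had a median of -0.56 and 35 of 40 members lower, against 76.3% of all tested genes. There were 13 members lower at an unadjusted p under 0.05 against 7.42% of all tested genes, and 0 of 40 by the limma test (0% of tested genes). Without both libraries 39 of 40 were lower at a median of -0.19, against 56.3%, and 4 at that threshold against 1.92%. Pola1 was 46.9, 47.2, 29.6, 36.7 and 35.4 in GYY_IgG and 11.4, 33.4, 26.4, 27.7 and 34.9 in GYY_PD1, which overlap. Against Veh_PD1 the median was -0.34 over 20 libraries and 0.04 without both, with 32 and 16 of 40 lower, against 71.9% and 41.0%, and 0 of 40 and 0% by the limma test. At an unadjusted p under 0.05, 3 members were lower over 20 libraries against 6.7%, and 2 lower and 2 higher without both against 3.21% and 5.91%. The clamp loader subunit Rfc4 differed by -0.53 (SE 0.25, limma adjusted p = 0.446) and by -0.33 without both. Tyms (-1.15), Prim1 (-0.60) and Pcna (-0.90) were at -0.15, -0.16 and -0.14 without both. These comparisons share the GYY_PD1 libraries.

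The interaction, whether the PD1 difference is not the same with GYY as with vehicle, had a median of -0.44 over 20 libraries and 0.00 over 18, with 34 and 18 of 40 lower against 75.4% and 47.4%, and 0 of 40 members and 0% of tested genes by limma. At an unadjusted p under 0.05 it had 0 members over 20 libraries, against 1.27% of tested genes, and 1 on the lower side over 18, against 1.35%. Rfc4, Gins1 and Mcm10 had the smallest p, at -0.67, -0.67 and -0.53, and -0.46, -0.25 and -0.26 over 18 libraries. The 95% interval of the median member reached 0.93 and 0.50 log2 to each side. Gins3 differed by -0.60 over 20 libraries and -0.52 over 18.

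Of other genes of the pathway, proliferation and mitosis genes had the most uniform pattern. For the PD1 average all 15 had a lower mean in both fits, at a median of -0.30 over 18 libraries, with 9 lower at an unadjusted p under 0.05 and 0 by the limma test. Of all tested genes 75.7% were lower over 20 libraries and 61.2% over 18, where 3.81% were lower at that unadjusted threshold. The median log2 deviation of the 15 genes was -0.47, 0.02, 0.06, -0.10 and -0.48 in Veh_PD1 replicates 1 to 5. Of these, replicates 2 and 3 have under 20% satellite-like TPM. In Veh_IgG it ranged from -0.48 to 0.37. The part of the satellite-like share in this pattern was not tested. Mki67, the proliferation marker Ki-67, was 132, 73.8, 98.9, 95.4 and 124 in Veh_IgG, 180, 163, 98.2, 106 and 136 in GYY_IgG, 60.6, 96.1, 121, 104 and 78.0 in Veh_PD1, and 28.6, 84.3, 93.3, 78.9 and 125 in GYY_PD1. The groups overlapped, and the 18-library PD1 difference was -0.31 (SE 0.16, limma adjusted p = 0.821). Top2a, the topoisomerase of mitotic chromosomes, differed by -0.31 and the cyclin Ccnb1 by -0.35.

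Replication genes outside the 40 had 32 of 40 lower for the PD1 average over 18 libraries, against 61.2% of all tested genes, at a median of -0.11, and 0 passed. Chtf18, part of the alternative clamp loader, differed by -0.44 (SE 0.13, limma adjusted p = 0.821), the helicase Recql4 by -0.42 and the histone chaperone Asf1b by -0.32. E2F and G1/S genes had 16 of 20 lower at a median of -0.12. E2f8, a repressive E2F, differed by -0.30 (SE 0.10, limma adjusted p = 0.821), while E2f1 differed by -0.12 and ranged from 23.0 to 63.7 rescaled TPM over the 20 libraries. Checkpoint and repair genes had 10 of 12 lower and mitochondrial DNA replication genes 5 of 7, at medians of -0.17 and -0.12. Cdkn2a, which encodes inhibitors of the cell cycle, differed by -0.29 (SE 0.13), Bub1b and Aurkb, mitotic kinases, by -0.37 and -0.29, and Brca1, Chek1 and Wee1 by -0.26, -0.28 and -0.23. In GYY_PD1 against Veh_PD1 over 18 libraries, Rb1, the retinoblastoma protein that restrains E2F, differed by 0.53, Ssbp1 by -0.13 and Polg2 by 0.09. In GYY_PD1 against GYY_IgG, Mcm8 differed by -0.50, Rbl1 by -0.19, Rad18 by -0.18 and Tfam by -0.18, and Polrmt, the mitochondrial RNA polymerase, differed from Veh_IgG by -0.21. For the PD1 average over 20 libraries these 4 lists had 33 of 40, 16 of 20, 9 of 12 and 4 of 7 genes lower, against 75.7% of all tested genes, so the last 3 were near or below that share.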

How the data were processed

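Bulk RNA-seq of 20 tumours, 5 per group, was used from 1 deposited table of log2 TPM; the values are log2 TPM deposited by the authors. Per the submitters' processing notes the tools were cutadapt, fastp, Salmon 0.14.1 and HTSeq 0.11.0 with mm10; which of them made the values is not given in the sources used here. TPM keep no read numbers, so the depth of the libraries is not known here and counting error cannot be stated. Values were raised back to TPM, and genes of GENCODE M21 (33928 of 34234 names found) that are nuclear and protein-coding, without satellite-like and olfactory or vomeronasal genes, were rescaled to 1000000. log2(value + 1) was tested with limma 3.58.1 (R 4.3.3) for the 11706 genes with at least 5 rescaled TPM in at least 5 libraries. The fit was 1 model of 4 groups with 16 residual degrees of freedom and trended variance. The Benjamini-Hochberg threshold was 0.05 over all tested genes. The fit was checked on simulated data with independent normal noise for each gene and no library standing apart. That check does not cover libraries that stand apart. With 2 libraries left out, 11422 genes were tested. All 40 members were tested. Named genes are the most abundant of each role group, the 4 smallest p of each comparison, members near the filter, and up to 4 genes of each further list. The 40 members and the lists were chosen with earlier results of these data known. Libraries with the same replicate number in different groups share only a number.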

Additional observations from a re-analysis of the deposited data

Results flagged for a closer look

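In 18 of 160 gene-by-group sets of 5 libraries, 1 library was separated from the nearest other by a gap that took most of the range of the group (Dixon's test at 95%). Chance flags about 1 in 20 such sets, and the sets share libraries. GYY_PD1 replicate 1 gave 10 of the 18. It was the lowest for Mcm2 (11.8 rescaled TPM), Mcm5 (14.99), Mcm10 (7.17), Pole (2.60), Rfc1 (2.58) and Rrm2 (18.7), and the highest for Gins2 (782), Rfc2 (197), Rfc5 (514) and Tk1 (233).

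GYY_IgG replicate 3 was the lowest of its group for Mcm4 (214), Cdc6 (20.3) and Rfc1 (38.8), and GYY_IgG replicate 4 for Prim1 (69.1). Veh_IgG replicate 2 was the lowest for Mcm7 (127) and the highest for Pole2 (64.2). In Veh_PD1, replicate 1 was the lowest for Rfc1 (31.5) and replicate 5 for Rfc2 (17.01).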

How the results depend on the processing

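On the rescaled scale limma called 0 of the 40 genes in all 8 comparisons under every alternative run on that scale, and leaving out any 1 library gave 0 as well. On the deposited scale the median differences moved to -0.35 (GYY_IgG against Veh_IgG), -1.07 (Veh_PD1 against Veh_IgG), -2.24, -1.20 and -1.87 (GYY_PD1 against Veh_IgG, Veh_PD1 and GYY_IgG), -0.77 (GYY average), -1.46 (PD1 average) and -0.86 (interaction), with 37 members called in GYY_PD1 against Veh_IgG. Without both GYY_PD1 libraries that stand apart, the medians of GYY_PD1 against Veh_IgG, Veh_PD1 and GYY_IgG were -0.091, 0.042 and -0.194, and the interaction 0.0033. Library weights gave -0.116 for GYY_PD1 against Veh_IgG. Chosen after seeing the data, leaving out GYY_PD1 replicates 1, 3 and 4 gave 0.038, 0.182 and -0.067 for the same 3 comparisons and 0.136 for the interaction, and libraries over 20% satellite-like TPM without both gave 0.143 against Veh_PD1 and -0.094 against GYY_IgG.

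Leaving out 1 library gave medians from 0.0123 to 0.1065 (GYY_IgG against Veh_IgG), -0.2377 to -0.1365 (Veh_PD1 against Veh_IgG), -0.5603 to -0.1479, -0.4597 to 0.0783 and -0.7115 to -0.2169 (GYY_PD1 against Veh_IgG, Veh_PD1 and GYY_IgG), -0.1662 to 0.0363 (GYY average), -0.4288 to -0.2264 (PD1 average) and -0.6009 to -0.0601 (interaction). For the comparisons that include GYY_PD1 the value nearest or above 0 was without GYY_PD1 replicate 1. With the replicate number as a block, 0 members were called. Every group holds 1 library of each replicate number, so this block cannot change the medians. The unchanged medians, for example -0.4926 for GYY_PD1 against Veh_IgG, therefore do not test the results. Same-numbered libraries correlated between -0.38 and 0.39, and 4 of 20 libraries correlated best with their own number.

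Signs of named genes reversed on the deposited scale for Cdc6 (-0.144), Pola1 (-0.148), Cdc45 (-0.136) and Mcm10 (-0.241) in GYY_IgG against Veh_IgG, for Rb1 (-0.042) and Polg2 (-0.081) in GYY_PD1 against Veh_PD1, and for Chek1 (-0.358) in the GYY average. Lig1 was at 0.0004 in GYY_PD1 against Veh_IgG after subtracting the library median. Without GYY_PD1 replicates 1, 3 and 4, signs reversed against Veh_PD1 for Tyms (0.113), Prim1 (0.096) and Pcna (0.083), in the GYY average for Tyms (0.0149) and Prim1 (0.0178), against Veh_IgG for Mcm4 (0.045), Gins4 (0.0238), Orc6 (0.103), Lig1 (0.102) and Uhrf1 (0.069), and against GYY_IgG for Rbl1 (0.0026). Over 20% satellite-like TPM without both, Tyms (0.060), Prim1 (0.036) and Ssbp1 (0.163) reversed against Veh_PD1. The cause of these changes was not tested. Of the single-gene values under the alternatives, 2091 kept sign and side of the threshold, 22 reversed and 15 passed the threshold, all 15 on the deposited scale. Depth is unknown, so what counting error allows is not given.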
